A study of Mus musculus with 8 samples.

Results

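Cytochrome P450 genes encode heme-containing monooxygenases that insert an oxygen atom into drugs, fatty acids and steroids. Their members were taken from the deposited count table as every gene whose symbol reads Cyp, a number, lower case letters and a number, without the vitamin D genes Cyp24a1 and Cyp27b1. This gave 90 members among 22609 genes, in 15 families and 37 subfamilies. Changes were examined for the 42 members with at least 10 counts in 4 or more of the 8 libraries, which fall in 10 families and 25 subfamilies. The other 48 members stayed below this limit, and 8 of them had no count in any library.

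RNA-Seq compared the kidney cortex of 4 aged and 4 young male C57BL6 mice, with one library per mouse. The labels give an age of 30 months for the aged and 5 months for the young mice. They state that no mouse was treated and name no transgene. The samples are pieces of whole cortex that hold many cell types, so fewer cells of a type and less RNA per cell cannot be told apart. Lymphocyte and plasma cell markers summed to 34.7 to 99.4 CPM in aged and 7.27 to 16.4 CPM in young mice, none of them at 0. Of their 4 tested genes 1 was higher at an adjusted p below 0.05, the immunoglobulin J chain gene Igj, which made up most of the sum, and the part of these cells in the P450 levels was not tested. Each library held 14820804 to 19821429 pairs assigned to genes, and the ranges of the groups overlapped. Aged mouse 1 stood apart, at -71.5 on the first principal component of the genes tested against -16.3 to 26.2 in the other mice. Markers of the first proximal tubule segments, S1 and S2, summed to 9887 CPM in aged mouse 1 and to 19775 to 24028 CPM in the other 7 mice, none of them at 0.

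In the kidney, P450 enzymes lie mainly in the proximal tubule. Most sit in the endoplasmic reticulum and receive electrons from the reductase Por, while mitochondrial members receive them through adrenodoxin. Renal members of the Cyp4a, Cyp2c and Cyp2j subfamilies act on arachidonic acid, whose hydroxylated and epoxidized products influence vessel tone and salt transport, and several mouse kidney P450 genes are known to be expressed more in males under the control of androgen. Families share a number and subfamilies a letter, so that Cyp2a4 and Cyp2a5 are close relatives.

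The heme iron is held by a cysteine in a conserved loop, and the codons of this loop show what joins the members. A coding stretch with the signature of this loop, 30 bases long, was found in 39 of the 42 members past the limit. It was not found with these letters in Cyp20a1, Cyp2b10 and Cyp2s1. The stretches of the 5 members that passed the test for a change with age are given below, from the transcripts of the mm9 annotation and read 5′ to 3′, with the cysteine codon in capitals.
Cyp4a14: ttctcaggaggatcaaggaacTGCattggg
Cyp2c44: ttctccctcgggaagcgatccTGTgttggc
Cyp2a5: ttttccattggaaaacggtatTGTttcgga
Cyp2d12: ttttcagcaggccgcagatcaTGCctgggg
Cyp2d22: ttctcagcaggccgcagatcaTGCctgggg

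Levels are given as CPM, counts divided by the size of the library and scaled between libraries by the trimmed mean of M values (TMM). Differences are log2 fold changes of aged minus young mice with their standard error (SE) from edgeR's quasi-likelihood test on 13944 genes. Changed means a fold of more than 1.5 with a p, adjusted by Benjamini-Hochberg over these genes, under 0.05. By these criteria 5 of the 42 members changed with age, and all 5 were higher in the aged mice. Among all genes tested 2.06% were called in either direction, 1.17% higher and 0.889% lower, and 2.95% had an adjusted p below 0.05 whatever their fold, which in the members left the same 5. The changed members were Cyp4a14, Cyp2c44, Cyp2a5, Cyp2d12 and Cyp2d22. No member fell by this test, although 8 members had an unadjusted p below 0.05 with a lower level in the aged mice. In either direction 21 of the 42 members and 25.5% of all genes tested reached that p. The share of all genes that were lower at that p was not counted. DESeq2 called 8 members higher and 1 lower, and limma-voom with a quality weight for each library called 5 higher and 0 lower. Of all 13944 genes DESeq2 called 873 and limma-voom 483, against 287 by edgeR. Without any 1 of the young mice, edgeR called 0 members, with adjusted p of the 5 genes between 0.0539 and 0.140. In those fits the 5 genes stayed at an unadjusted p of at most 0.00493, and between 12 and 15 of the 42 members had an unadjusted p below 0.05. The share of all genes at that p was not counted in those fits, and it was 25.5% with all 8 mice. Without the share from the same fits, the count of members cannot be read as a result about the members. Without aged mouse 4 edgeR called 12 members, and without aged mouse 2 or aged mouse 3 it called 3. The number of all genes called also moved with the mouse left out, and its range is given in the last section.

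**Figure D1:**
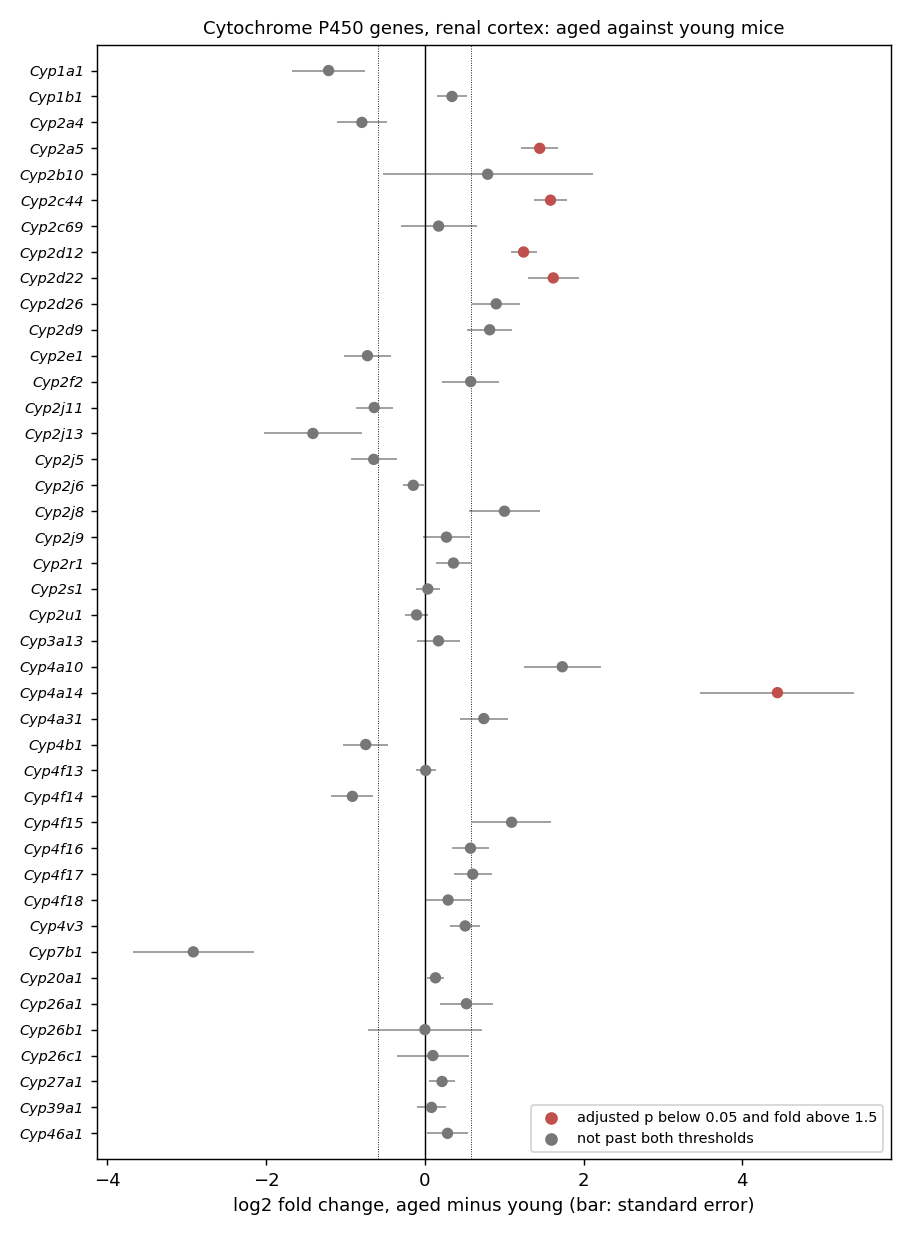
Log2 fold change of aged minus young mice for the 42 members past the count limit, ordered by family, with the standard error as bars and dotted lines at a fold of 1.5. The 5 red points, Cyp2a5, Cyp2c44, Cyp2d12, Cyp2d22 and Cyp4a14, passed both thresholds, and Cyp4a14 lies farthest to the right at 4.44.

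Taken over the 42 members as a description, 31 had a log2 fold change above 0 and 11 below 0. The median log2 fold change was 0.28 in the members and 0.03 in all genes tested. The median size of the log2 fold change, without its sign, was 0.62 in the members and 0.20 in all genes. An unadjusted p below 0.05 was reached by 21 members, 13 higher and 8 lower, and by 25.5% of all genes. The groups did not overlap in 10 members, 7 with all aged mice above all young mice and 3 with all below, against 18.9% of all genes tested in either direction. None of the 42 members reached the count limit through one group only. Just inside the limit, Cyp2b10 had 255, 0, 3 and 9 counts in the aged group and 50, 49, 3 and 30 in the young group. Just outside it, Cyp4a32 had 163, 9, 14 and 6 counts in the aged group and 10, 5, 9 and 7 in the young group.

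The Cyp4a enzymes hydroxylate the far end of fatty acids and are classical targets of the nuclear receptor PPAR-alpha. Cyp4a14, on the minus strand at chr4:115158805-115168747 of mm9 with 12 exons, was the member with the largest fold change. Its level was 4509, 676, 847 and 309 CPM in aged mice 1 to 4. In the young mice it was 73.5, 13.6, 116 and 88.9 CPM. The groups did not overlap, and aged mouse 1 stood far above the other aged mice. The log2 fold change was 4.44 (SE 0.97, adjusted p = 0.0483 by edgeR). Without aged mouse 1 it was 3.07 (SE 0.61, adjusted p = 0.0308). The adjusted p was 0.0513 with robust fitting and 0.0505 when genes needed 10 counts in every library, so the gene lay at the edge of the threshold.

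Cyp4a10 had 1228, 305, 402 and 291 CPM in the aged mice. The young mice had 194, 93.6, 183 and 199 CPM. All aged mice lay above all young mice, but the log2 fold change of 1.73 (SE 0.49) missed the threshold (adjusted p = 0.0810), and it was 0.99 without aged mouse 1 (adjusted p = 0.0508). Cyp4a31 had 541, 197, 298 and 228 CPM in the aged and 206, 136, 207 and 206 CPM in the young mice, which overlapped (log2 fold change 0.74, SE 0.30, adjusted p = 0.170, or 0.35 without aged mouse 1). Aged mouse 1 held the highest value of all 3 genes, and young mouse 2 the lowest. Summed, the 3 Cyp4a members past the limit reached 2458 ± 2564 CPM in the aged group against 429 ± 125 CPM in the young group (SD, n = 4 each). This was 26.4% and 4.28% of the summed CPM of the 90 members. Without aged mouse 1 the aged mean was 1184 ± 359 CPM (SD, n = 3) and its share 13.9%. The symbol rule leaves out Cyp4a12a and Cyp4a12b, which are not in this sum. Cyp4a12a had 31.9, 36.1, 64.2 and 161 CPM in the aged and 117, 224, 105 and 184 CPM in the young mice (log2 fold change -1.10, SE 0.51, adjusted p = 0.209 by edgeR). Cyp4a12b had a log2 fold change of 0.08 (SE 0.22, adjusted p = 0.827 by edgeR).

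Cyp4a10 and Cyp4a31 are near-copies whose reads can be hard to assign, which matters because they gave different values. Their coding sequences were 96.6% identical, with 52 differing bases among 1530. In a search against mm9, 18.3% of windows of 100 bases in Cyp4a10 matched another place at 98% identity or more, compared with 0% in Cyp4a31 and Cyp4a14. That search missed shared stretches of Cyp4a31, of whose coding windows 7.55% occur unchanged in Cyp4a10 and 9.71% in Cyp4a32. Cyp4a14 shared no unchanged window with these genes. HTSeq by default leaves out pairs that align to several places, so the levels of Cyp4a10 and Cyp4a31 are less certain than that of Cyp4a14. Coding bases 73 to 162 show how close the genes are, with the 7 differing bases in capitals.
Cyp4a10: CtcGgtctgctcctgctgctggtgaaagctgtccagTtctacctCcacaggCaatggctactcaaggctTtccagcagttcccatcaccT
Cyp4a31: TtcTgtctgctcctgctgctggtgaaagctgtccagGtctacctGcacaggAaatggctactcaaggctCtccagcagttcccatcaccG

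The 3 Cyp4a members and Cyp4b1 lie within 162 kb of one another, at chr4:115158805-115320322 of mm9. Cyp4b1, which activates aromatic amines and is known to be induced by androgen in mouse kidney, was the most abundant member per kb of transcript in both groups. It had 1080, 1602, 1851 and 3021 CPM in the aged mice. In the young mice it had 2885, 3843, 2762 and 3166 CPM. Aged mice 1, 2 and 3 lay below the young range and aged mouse 4 within it. The log2 fold change was -0.74 (SE 0.28, adjusted p = 0.149 by edgeR). The neighbouring genes of this locus thus had fold changes of opposite sign in the same mice, and this was so with each of the other scalings.

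**Figure D2:**
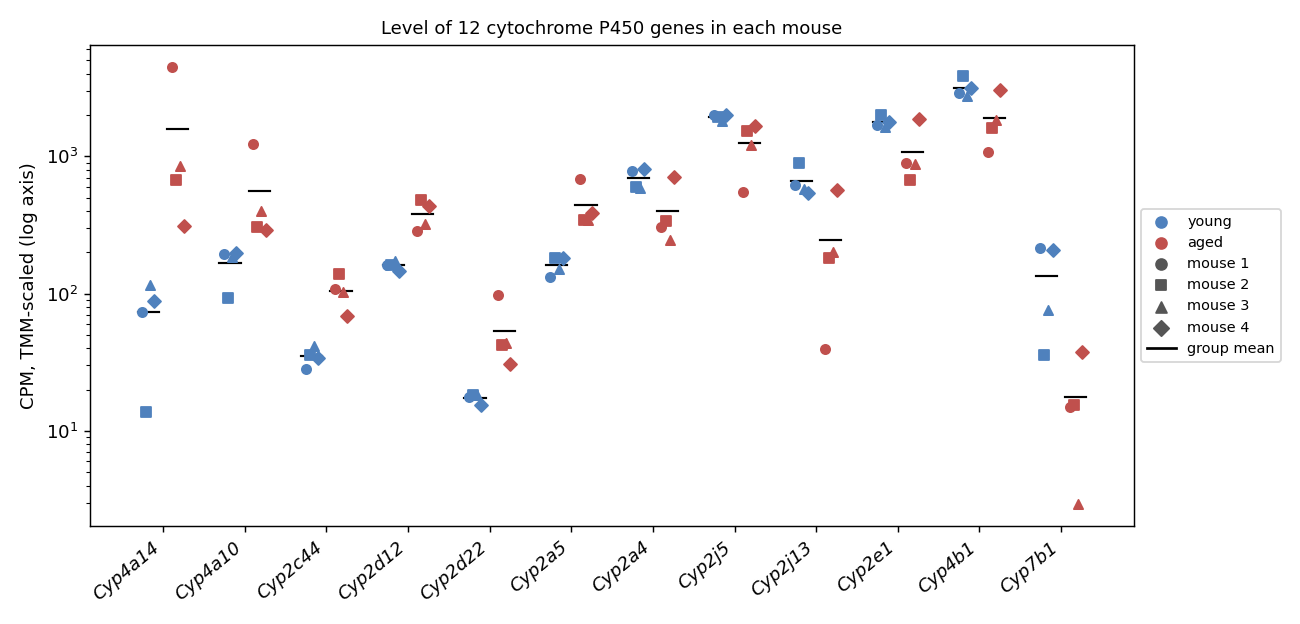
Level of 12 P450 genes in each mouse, in TMM-scaled CPM on a log axis, with young mice in blue, aged mice in red, a symbol for each mouse number and a line at the group mean. The aged mice lie above all young mice for Cyp4a14, Cyp4a10, Cyp2c44, Cyp2d12, Cyp2d22 and Cyp2a5 and below all of them for Cyp2j5, and aged mouse 4 reaches the young range for Cyp2a4, Cyp2j13, Cyp2e1, Cyp4b1 and Cyp7b1.

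Among the arachidonic acid epoxygenases Cyp2c44 rose, while Cyp2j5 had a lower mean in the aged mice that did not pass the test. Cyp2c44, an epoxygenase of the mouse kidney on the minus strand at chr19:44079512-44103737 of mm9, had the smallest p of all members. Its level was 108, 140, 103 and 69.0 CPM in the aged mice. The young mice had 28.2, 36.0, 41.6 and 34.0 CPM. The groups did not overlap, and the mean was 3.00-fold higher in the aged mice (log2 fold change 1.58, SE 0.21, adjusted p = 0.0153 by edgeR). Over all alternatives the log2 fold change lay between 1.42 and 1.74. No window of this gene had a near-identical copy, and Cyp2c65 and Cyp2c66, its closest relatives among the members compared, each shared 65.9% of its coding bases.

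Cyp2j5, another kidney epoxygenase and the second most abundant member by CPM in the young mice, had 549, 1540, 1215 and 1656 CPM in the aged mice and 1989, 1947, 1810 and 2004 CPM in the young group. All aged mice lay below all young mice, with aged mouse 1 lowest. The log2 fold change was -0.64 (SE 0.29) and did not pass the test (adjusted p = 0.205), and it was -0.40 without aged mouse 1 (adjusted p = 0.0777). Cyp2j11 had 89.5, 211, 148 and 198 CPM in the aged and 252.5, 233, 244 and 275 CPM in the young mice, also without overlap (log2 fold change -0.64, SE 0.23, adjusted p = 0.136). Cyp2j13 had 39.4, 182, 201 and 567 CPM in the aged and 617, 897, 577 and 537 CPM in the young mice, where aged mouse 4 lay within the young range (log2 fold change -1.41, SE 0.62, adjusted p = 0.194). Cyp2j8 was scarce and had the highest log2 fold change of its subfamily, 1.00 (SE 0.44, adjusted p = 0.195), or 0.40 without aged mouse 1. The 6 Cyp2j members past the limit lie within 637 kb at chr4:95694225-96330845 of mm9. Their sum was 1720 ± 732 CPM in the aged group against 2915 ± 189 CPM in the young group (SD, n = 4 each).

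The Cyp2d genes belong to a subfamily of drug-metabolizing enzymes, and all 4 members past the limit were higher on average in the aged mice. They lie within 424 kb at chr15:82200958-82624675 of mm9. Cyp2d12, on the plus strand at chr15:82385538-82389843, had 285, 477, 323 and 436 CPM in the aged mice. In the young mice it had 160, 163, 173 and 146 CPM. The groups were clearly apart and the mean was 2.37-fold higher in the aged mice (log2 fold change 1.24, SE 0.16, adjusted p = 0.0155 by edgeR). Cyp2d22, on the minus strand at chr15:82200958-82210690, had 97.1, 42.1, 43.7 and 30.6 CPM in the aged mice. The young mice had 17.6, 18.2, 18.4 and 15.4 CPM. The groups did not overlap, with aged mouse 1 highest (log2 fold change 1.62, SE 0.32, adjusted p = 0.0401). Without aged mouse 1 the log2 fold change of Cyp2d22 was 1.16 (adjusted p = 0.00738). Without aged mouse 2 or aged mouse 3 its adjusted p was 0.0596 and 0.0660.

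Cyp2d9, a testosterone hydroxylase, had 436, 179, 178 and 279 CPM in the aged and 141, 150, 134 and 184 CPM in the young mice. The groups overlapped slightly (log2 fold change 0.82, SE 0.28, adjusted p = 0.119), and without aged mouse 1 the log2 fold change was 0.48. Cyp2d26 had 135, 182, 176 and 70.8 CPM in the aged and 54.7, 73.6, 107 and 66.7 CPM in the young mice (log2 fold change 0.90, SE 0.30, adjusted p = 0.116). The coding sequences of Cyp2d12 and Cyp2d9 were 92.1% identical, and 4.17% of the coding windows of 100 bases in Cyp2d12 occur unchanged in Cyp2d9. For Cyp2d22, 0.427% of such windows occur unchanged in Cyp2d26. The search against mm9 missed these: it found a near-identical copy for 3.67% of windows of Cyp2d9 but 0% of those of Cyp2d12 and Cyp2d22. The Cyp2d sum was 843 ± 98.5 CPM in the aged group against 406 ± 24.4 CPM in the young group (SD, n = 4 each), and each aged mouse had more than any young mouse.

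Cyp2a4 and Cyp2a5 are a pair of near-copies, of which Cyp2a5 rose with age while Cyp2a4 had a lower mean that did not pass the test. Cyp2a5 oxidizes coumarin and nicotine, and Cyp2a4 is a testosterone hydroxylase. Both are on the plus strand of chromosome 7 in mm9, Cyp2a4 at chr7:27092209-27100107 and Cyp2a5 at chr7:27620324-27628567, with 9 exons each. Their coding sequences differed at 23 of 1485 bases, an identity of 98.5%. Coding bases 580 to 669 are shown because reads of the pair can be told apart only at such positions, with the 5 differing bases in capitals.
Cyp2a4: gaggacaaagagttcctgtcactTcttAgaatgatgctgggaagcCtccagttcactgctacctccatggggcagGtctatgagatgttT
Cyp2a5: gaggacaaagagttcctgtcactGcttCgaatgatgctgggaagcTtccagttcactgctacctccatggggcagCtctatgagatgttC

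The promoters of the pair are just as close. RefSeq gives windows from 250 bases before to 50 bases after each start in GRCm38.p6, for Cyp2a4 at chr7:26306942-26307241 and for Cyp2a5 at chr7:26835089-26835388, both on the plus strand. The aligned windows differed at 5 of 299 bases, which are in capitals.
Cyp2a4 promoter: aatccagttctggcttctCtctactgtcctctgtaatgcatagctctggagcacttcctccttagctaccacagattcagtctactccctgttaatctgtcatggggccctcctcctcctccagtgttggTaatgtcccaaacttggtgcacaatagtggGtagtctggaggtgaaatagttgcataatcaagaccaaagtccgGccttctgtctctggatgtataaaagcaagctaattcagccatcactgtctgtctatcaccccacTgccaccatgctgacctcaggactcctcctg
Cyp2a5 promoter: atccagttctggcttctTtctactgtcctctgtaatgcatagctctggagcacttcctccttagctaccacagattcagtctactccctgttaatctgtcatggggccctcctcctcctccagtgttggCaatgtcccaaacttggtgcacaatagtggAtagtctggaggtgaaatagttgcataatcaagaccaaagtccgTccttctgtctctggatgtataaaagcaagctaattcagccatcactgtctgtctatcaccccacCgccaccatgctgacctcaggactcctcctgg

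Both windows hold TATAAA, counted from the start site at position -28 in Cyp2a4 and -29 in Cyp2a5, and this motif was found on either strand in 13.6% of all promoter windows. Both also hold TTATGNAA, a form of the motif bound by the clock-controlled factor Dbp and its relatives, at positions -70 and -71. It was found in 3.39% of all windows. This form was taken up only after the sequences had been seen, because TTANGTAA, the form searched first and found in 2.32% of all windows, matched neither promoter. AGGTCA, the half-site of many nuclear receptors, was also in both windows, after the start site, and in 16.3% of all windows. A degenerate direct repeat of that half-site with a single-base spacer, AGAACA and GCGTG were searched on both strands too and matched neither (0.381%, 19.0% and 32.4% of all windows). None of the 5 differing bases lies in the matched motifs. A match of letters does not show that a factor binds there.

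Cyp2a5 had 684, 346.5, 346.6 and 386 CPM in the aged mice. The young mice had 132, 182, 150 and 183 CPM. The groups did not overlap, and the mean was 2.73-fold higher in the aged mice (log2 fold change 1.45, SE 0.24, adjusted p = 0.0267 by edgeR). Without aged mouse 1, the highest, the log2 fold change was 1.15 (adjusted p = 0.00570). Cyp2a4 had 305, 339, 247 and 711 CPM in the aged and 779, 595, 590 and 810 CPM in the young mice. Aged mice 1, 2 and 3 lay below the young range and aged mouse 4 within it (log2 fold change -0.79, SE 0.31, adjusted p = 0.156).

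The ratio of Cyp2a4 to Cyp2a5 was 0.446, 0.978, 0.712 and 1.84 in the aged mice. In the young mice it was 5.92, 3.27, 3.93 and 4.44. The ratio separated the groups completely, while their sum was 841 ± 240 CPM in the aged group against 855 ± 117 CPM in the young group (SD, n = 4 each). Windows with a near-identical copy made up 53.6% of Cyp2a5 and 22.0% of Cyp2a4. Pairs that fit both genes are left out of the counts or could be assigned to the wrong gene, so the levels and the ratio are less certain than for the other changed members.

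**Figure D3:**
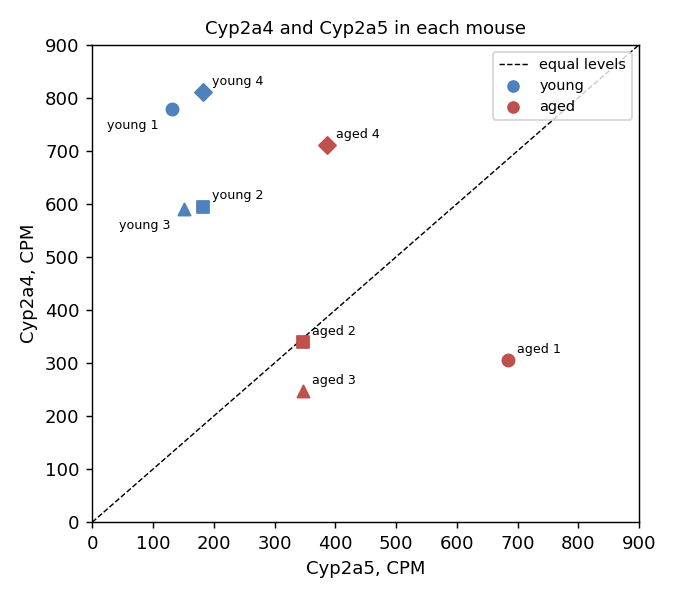
Level of Cyp2a4 against Cyp2a5 in each mouse, in CPM on linear axes, with a dashed line where the levels are equal. The young mice lie far above the line, with ratios of 3.27 to 5.92, aged mice 1 to 3 lie below or on it, and aged mouse 4 lies between them at 1.84.

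Cyp2e1 and Cyp7b1 are known for higher expression in the male mouse kidney. Cyp2e1, which oxidizes ethanol and other small molecules, had 888, 668, 872 and 1868 CPM in the aged mice and 1700, 1998, 1626 and 1768 CPM in the young group. Aged mice 1, 2 and 3 lay below the young range while aged mouse 4 lay within it (log2 fold change -0.72, SE 0.29, adjusted p = 0.164). Cyp7b1, the hydroxylase of oxysterols and dehydroepiandrosterone, on the minus strand at chr3:17971950-18143338 of mm9, had 15.0, 15.4, 2.94 and 37.4 CPM in the aged mice and 215, 35.8, 76.2 and 207 CPM in the young group. Only aged mouse 4 and young mouse 2 overlapped. The mean was 7.56-fold higher in the young mice, but both groups spread widely and the test was missed (log2 fold change -2.92, SE 0.76, adjusted p = 0.0693 by edgeR). DESeq2 called Cyp7b1 lower, with an adjusted p of 0.00889.

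Cyp2a4, Cyp2e1, Cyp2j13, Cyp4b1 and Cyp7b1 shared a pattern in which aged mouse 4 was the highest aged mouse. All 5 were called lower when aged mouse 4 was left out, with log2 fold changes of -1.22, -1.13, -2.22, -1.07 and -3.59 and adjusted p between 0.00531 and 0.0388 by edgeR. They were not called with all 8 mice. The fit without aged mouse 4 called 12 members against 5 with all 8 mice, and 16 genes of the lists below against 5. The gain in calls was therefore not limited to these 5 members. Leaving a mouse out by its value is a description and no separate evidence.

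A list of 5 genes known to respond to androgen in the kidney was set beside these members. All 5 had a lower mean in the aged mice, with a median log2 fold change of -1.81. Only Acsm3, a medium-chain acyl-CoA synthetase, passed the test. Its level was 77.5, 50.8, 49.2 and 316 CPM in the aged mice and 1083, 721, 632 and 1006 CPM in the young mice (log2 fold change -2.80, SE 0.62, adjusted p = 0.0491 by edgeR). Of the 5 genes called in this and the following lists, Dbp alone was still called without young mouse 2, and none without any other 1 of the young mice. Without aged mice 1 to 4 in turn, 4, 2, 1 and 5 of these 5 stayed called, and Acsm3 was lost without aged mouse 1, 2 or 3. Without aged mouse 4, 16 list genes were called in all. The median level of the list, as a log2 difference from the young mean, was -3.43, -2.07, -2.34 and -0.69 in aged mice 1 to 4, where aged mouse 4 lay nearest the young mice. Markers of the last proximal tubule segment, S3, also differed: their 7 genes summed to 1146 to 3719 CPM in aged and 4124 to 5949 CPM in young mice, with 0 of 7 past an adjusted p of 0.05 and none at 0. The S3 sum was highest in aged mouse 4 among the aged mice. The part of androgen response or of S3 markers in the lower P450 levels was not tested.

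Targets of PPAR-alpha outside the P450 genes were compared with the Cyp4a genes. Of 17 targets tested, 16 had a higher mean in the aged mice, with a median log2 fold change of 0.72, or 0.29 without aged mouse 1. Only Fabp1, a fatty acid binding protein, passed the test, at low levels of 5.60, 3.06, 3.79 and 0.654 CPM in the aged and 0.247, 0.476, 0.612 and 0.354 CPM in the young mice (log2 fold change 2.94, SE 0.61, adjusted p = 0.0429 by edgeR). It had 114, 47, 71 and 12 counts in the aged but only 4, 9, 9 and 6 in the young mice, so it entered the test through the aged group alone and had no value when 10 counts were required in every library. The median of the list, as a log2 difference from the young mean, was 1.74, -0.08, 0.32 and 0.29 in aged mice 1 to 4. Aged mouse 1 stood above the other mice here as it did for Cyp4a14 and Cyp4a10. The receptor itself, Ppara, had 506, 234, 280 and 292 CPM in the aged and 212, 227, 273 and 344 CPM in the young mice (log2 fold change 0.31, SE 0.25, adjusted p = 0.443). Aged mouse 1 also had the highest sum of adipocyte markers, 262 CPM, against 8.50 to 68.6 CPM in the other aged mice and 1.09 to 24.3 CPM in the young mice, with 0 of 4 tested markers past an adjusted p of 0.05 and none at 0. The part of either in the Cyp4a levels was not tested.

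**Figure D4:**
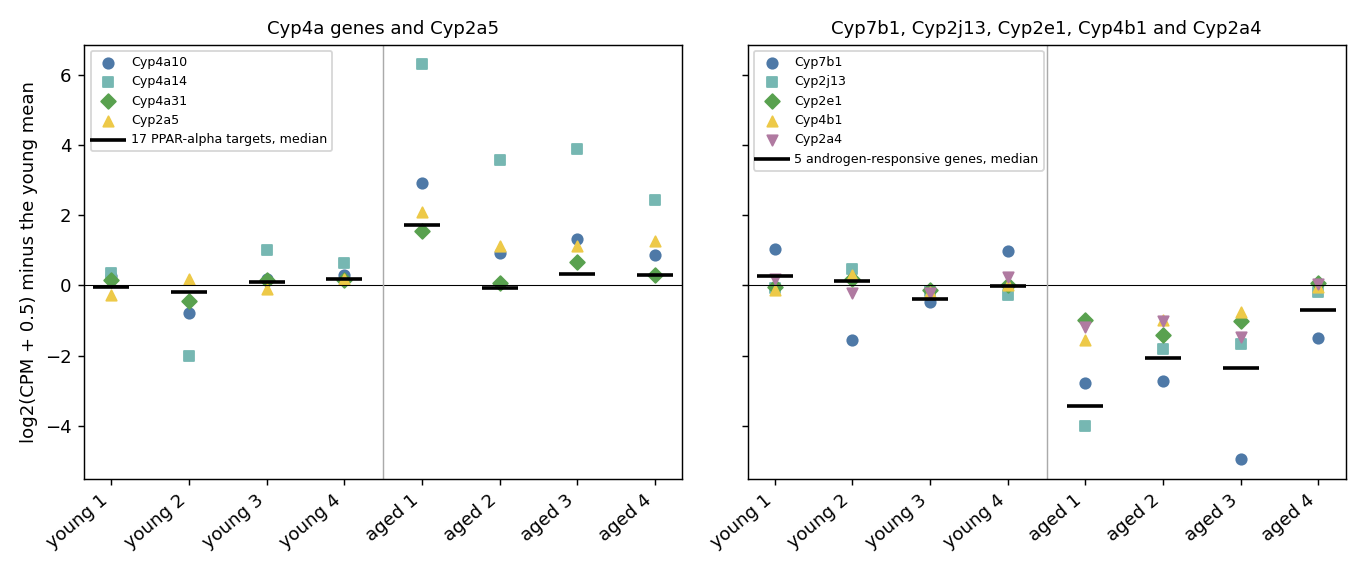
Level of P450 genes in each mouse as log2(CPM + 0.5) minus the young mean, beside the median of a list of other genes (black lines), for the Cyp4a genes and Cyp2a5 with PPAR-alpha targets on the left and for 5 members with lower values in aged mice beside androgen-responsive genes on the right. Aged mouse 1 is highest on the left, with Cyp4a14 at 6.30 and the list at 1.74, and aged mouse 4 is nearest the young mice on the right, with Cyp2j13 at -0.18 and the list at -0.69.

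All 90 members summed to 11608, 7555, 7569 and 10507 CPM in the aged and 9873, 10761, 9186 and 10270 CPM in the young mice, so the groups overlapped. The members past the limit carried nearly all of it, with at least 99.9% in both groups. Cyp4b1 was the most abundant member by CPM in 7 of the 8 mice, where it gave 21.2% to 35.7% of this sum. In aged mouse 1 Cyp4a14 took its place with 38.8%. The Cyp2j members made up 29.1% of the sum over the 90 members in the young and 18.5% in the aged mice, and Cyp2e1 17.7% and 11.5%. These shares were not tested, and P450 genes outside the symbol rule are not in the sum. A share of a sum drops when another member rises, so shares and levels are different quantities.

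**Figure D5:**
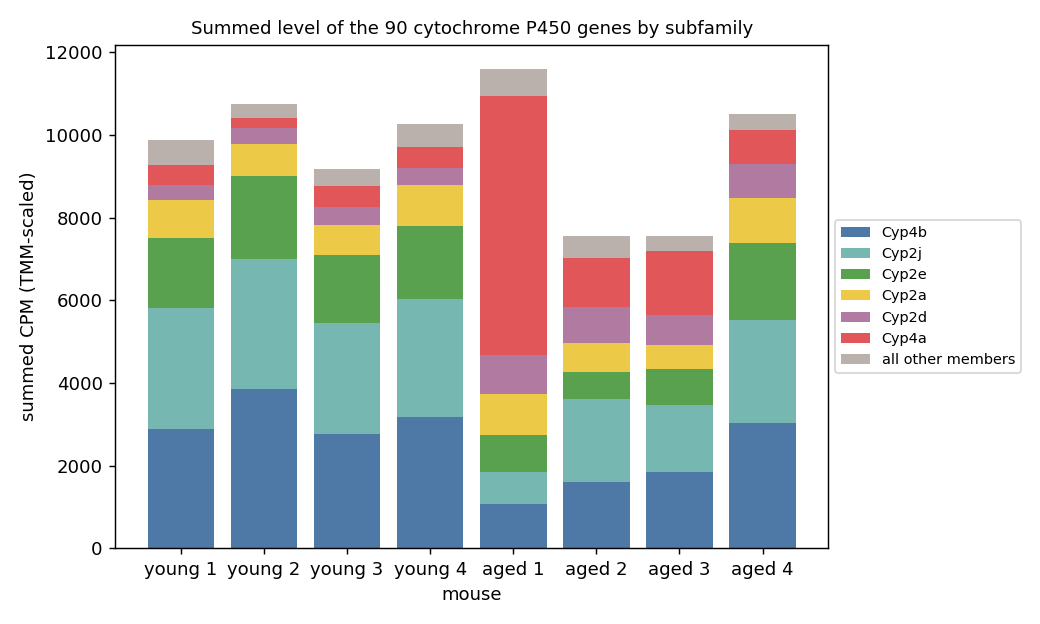
Summed level of the 90 P450 members in each mouse, in TMM-scaled CPM from 0, stacked by subfamily with all smaller subfamilies in grey. The Cyp4a part ranges from 828 to 6278 CPM in aged and from 243 to 506 CPM in young mice, while the totals of the groups overlap.

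Members for sterols, retinoic acid and foreign compounds outside these groups did not pass the test. Cyp27a1, the mitochondrial sterol hydroxylase, had 75.5, 44.0, 46.8 and 51.3 CPM in the aged and 46.4, 45.5, 47.9 and 47.5 CPM in the young mice (log2 fold change 0.22, SE 0.16, adjusted p = 0.404). Cyp39a1, an oxysterol hydroxylase, had a log2 fold change of 0.08 (SE 0.19, adjusted p = 0.798), and Cyp46a1, the cholesterol hydroxylase best known from brain, 0.29 (SE 0.26, adjusted p = 0.507). Cyp20a1, whose substrate is not established, had 0.13 (SE 0.11, adjusted p = 0.470). Cyp26a1, which clears retinoic acid, had 0.52 (SE 0.33, adjusted p = 0.340), and its relative Cyp26b1 spread from 8.28 to 159 CPM in the aged and from 33.6 to 97.2 CPM in the young mice.

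The Ah receptor target Cyp1a1 was scarce, with 7, 2, 9 and 15 counts in the aged and 14, 14, 23 and 18 counts in the young mice (log2 fold change -1.21, SE 0.46, adjusted p = 0.149). Of the 7 Cyp3a members, which in liver metabolize many drugs, only Cyp3a13 was past the limit, at 0.818 ± 0.237 CPM in the aged group against 0.730 ± 0.0485 CPM in the young group (SD, n = 4 each) (log2 fold change 0.17, SE 0.27, adjusted p = 0.715). The 6 Cyp4f members past the limit, hydroxylases of leukotrienes and other lipids, ran from Cyp4f14 with a log2 fold change of -0.91 (SE 0.26, adjusted p = 0.0860) to Cyp4f15 with 1.09 (SE 0.50, adjusted p = 0.205). Cyp4f14 had 1.18, 0.976, 0.641 and 0.872 CPM in the aged and 1.91, 1.27, 1.70 and 2.07 CPM in the young mice, without overlap. Without aged mouse 1 the log2 fold change of Cyp4f15 was 0.43, and its groups overlapped.

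Steroid synthesis members were at or near the limit of detection. Cyp11b1, Cyp19a1 and Cyp21a1 had no count in any library. Cyp11a1, the enzyme that cleaves the cholesterol side chain, had 2 counts in aged mouse 4 only, and Cyp11b2, the aldosterone synthase, 1 count in young mouse 4 only. Cyp17a1 had 26, 1, 4 and 7 counts in the aged and 2, 0, 2 and 3 counts in the young mice. A level of 3 counts, which a count of 0 allows, was 0.151 to 0.202 CPM before TMM scaling and covers counting error only. These values also bear on adjacent tissue: markers of the adrenal cortex summed to 4.65 to 10.6 CPM in aged and 3.88 to 5.44 CPM in young mice, with Nr5a1, Cyp11b1 and Cyp21a1 at 0. The 13 Cyp2c members below the limit, mostly known from liver, summed to 19, 66, 54 and 40 counts in the aged and 6, 15, 4 and 8 counts in the young mice. Cyp2c68, with a near-identical copy for 36.2% of its windows, gave 15, 52, 45 and 7 of the aged and 2, 6, 2 and 3 of the young counts. The other 12 summed to 4, 14, 9 and 33 counts in the aged and 4, 9, 2 and 5 counts in the young mice. Hepatocyte markers summed to 30.4 to 95.6 CPM in aged and 58.3 to 84.7 CPM in young mice, with none at 0 in every library. Of their 6 tested genes 3 had an adjusted p below 0.05, albumin (Alb) and fibrinogen (Fgb) higher and transthyretin (Ttr) lower, and their median log2 fold change was 1.32. As a log2 difference from the young mean, the median of the list was 1.23, 0.80, -0.26 and 1.13 in aged mice 1 to 4, and the part of liver RNA in these counts was not tested.

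The genes that supply P450 enzymes with electrons were examined next. Por, the reductase that serves most P450 enzymes of the endoplasmic reticulum, had 249, 223, 221 and 337 CPM in the aged mice. The young mice had 434.5, 473, 433 and 449 CPM. All aged mice lay below all young mice and Por fell with age (log2 fold change -0.80, SE 0.14, adjusted p = 0.0323 by edgeR). Its adjusted p was 0.0593 without aged mouse 2, 0.0635 without aged mouse 3 and at most 0.103 without 1 of the young mice. Of the 9 partner genes tested, Por was called and Cyb5r1, a cytochrome b5 reductase, had an adjusted p of 0.0477 at a smaller log2 fold change of -0.45. No partner was higher at an adjusted p below 0.05. The median log2 fold change of the list was -0.20, or -0.08 without aged mouse 1 and -0.10 with scaling by library size alone. None of the 12 genes of heme synthesis and breakdown had an adjusted p below 0.05 (median log2 fold change -0.12). The scaling by library size alone, which gave a median of -0.01 for the heme list, left 6 of its genes above 0 and 6 below.

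Regulators and the enzymes downstream were read in the same way. Of 17 regulators tested, 2 had an adjusted p below 0.05 and both were lower. Dbp, a clock-controlled transcription factor known to act on Cyp2a4 and Cyp2a5 in liver, had 23.1, 9.30, 9.35 and 25.6 CPM in the aged and 97.0, 110, 106 and 106 CPM in the young mice (log2 fold change -2.63, SE 0.33, adjusted p = 0.0141 by edgeR). Its mean was 6.23-fold higher in the young mice. Nr1h3, the oxysterol receptor LXR-alpha, had a log2 fold change of -0.51 (SE 0.10, adjusted p = 0.0385), which is below the fold threshold. The hour at which the mice were killed is not given in the sources used here, and its part in the level of Dbp was not tested. The epoxide hydrolases, which open the epoxides made by Cyp2c and Cyp2j enzymes, did not pass the test and differed in direction. Ephx1 had 117, 46.9, 40.7 and 35.3 CPM in the aged and 30.9, 29.2, 27.7 and 25.3 CPM in the young mice, without overlap (log2 fold change 1.08, SE 0.35, adjusted p = 0.108). Without aged mouse 1 its log2 fold change was 0.53 (adjusted p = 0.0341), below the fold threshold. Ephx2 had 429, 397, 362 and 499 CPM in the aged and 541, 584, 505 and 527 CPM in the young mice, without overlap (log2 fold change -0.35, SE 0.11, adjusted p = 0.107).

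Among P450 genes that the symbol rule leaves out, 1 of 7 tested passed. Cyp27b1, the vitamin D 1-alpha-hydroxylase of the proximal tubule, had 18.1, 11.8, 16.6 and 19.5 CPM in the aged and 5.61, 9.63, 8.50 and 5.61 CPM in the young mice (log2 fold change 1.17, SE 0.23, adjusted p = 0.0390 by edgeR). The groups did not overlap.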

How the data were processed

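RNA was extracted by the authors from the kidney cortex of 4 aged and 4 young mice, and stranded libraries were made after removal of ribosomal RNA. The paper's methods give a mean age of the aged mice that differs from the labels, whose 30 months are used here. Per the labels and methods, reads were aligned to mm9 with TopHat2 and read pairs were counted per RefSeq gene with HTSeq. CASAVA 1.8.2 is named in the submitters' processing notes, and versions of the other programs are not given in the sources used here. The authors deposited raw counts without normalization, in one table per library and in a joint table that holds the same values. Rows that name no gene (20.0% to 29.9% of pairs per library on no gene, 34.3% to 39.1% aligned to several places) did not enter the library sizes or the tests.

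Counts were tested with edgeR 4.0.16 in R 4.3.3 (TMM, filterByExpr with a minimum count of 10, quasi-likelihood test, Benjamini-Hochberg adjustment over 13944 genes, no covariate). The SE is the size of the log2 fold change divided by the square root of F. p-values set the difference between the groups against the spread between these mice within each group. Alternatives were other scalings, DESeq2 1.42.0, limma-voom with quality weights (limma 3.58.1), robust fitting, other filters, the replicate number as a block, other thresholds, all 90 members in the sums, and each mouse left out. The scripts were tested on simulated data.

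Positions and transcripts came from the GENCODE annotation of mm9, and promoters from RefSeq (GRCm38.p6), which held an entry for 70 of the 90 members. Among the members without an entry were Cyp2d22, Cyp2c44, Cyp2d12, Cyp4a10, Cyp4a14, Cyp4a31 and Cyp7b1. BLAST 2.17.0 was used to find near-identical copies in mm9 (98% identity over 100 bases), and coding sequences were aligned with MAFFT 7.526 from Python 3.11.15. The BLAST search set transcripts against the genome and dropped alignments under 98% as a whole, so it can miss shared windows. Exact matches of 100 bases between coding sequences of a subfamily were also counted.

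The members, lists and tests were chosen with earlier results of these data known. Named genes were members with adjusted p below 0.05, the most abundant per length, the smallest p of each family, the extremes of larger subfamilies, the steroid synthesis members, members changed under at least 3 alternatives only, and list genes with adjusted p below 0.05, with Por, Ephx2, Ppara and Dbp. Cyp2d26, Cyp26b1, Cyp2b10, Cyp2s1, Cyp2c65, Cyp2c66, Cyp2c68, Ephx1, Igj, Alb, Fgb, Ttr, Cyp4a12a, Cyp4a12b and Cyp4a32 were named after their values were seen.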

Additional observations from a re-analysis of the deposited data

Results flagged for a closer look

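In 5 of 50 groups of 4 mice 1 mouse stood far from the others by Dixon's ratio of its gap to the range of the group, above Dixon's critical value. Chance gives about 1 in 20, or 2.5 groups. Aged mouse 1 was the highest aged mouse for Cyp2a5 (ratio 0.884), Cyp4a10 (0.882) and Cyp4a14 (0.872). Young mouse 2 was the lowest young mouse for Cyp4a10 (0.852) and Cyp4a31 (0.983).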

How the results depend on the processing

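Across 5 changed members, the log2 fold change stayed above 0 in every alternative run. The 3 other scalings, limma-voom, no filter, the filter of 10 counts in 4 libraries and both other thresholds gave the same 5 members. DESeq2 called 9, adding Cyp2d26, Cyp2d9, Cyp4a10 and Cyp7b1. Robust fitting and the filter of 10 counts in every library called 4, without Cyp4a14. With 1 mouse left out the number ranged from 0 to 12, whether or not a fold limit was set. It was 0 without any 1 of the young mice, 3 without aged mouse 2 or 3, where Cyp2d22 and Cyp4a14 were lost, and 12 without aged mouse 4. Among all genes 287 were called, 488 with library size only, 873 with DESeq2, 483 with limma-voom, and 8 to 733 with 1 mouse left out. In the partner and regulator lists 5 genes were called, 15 with DESeq2, 10 with limma-voom, 3 with 10 counts in every library, and 0 to 16 with 1 mouse left out. The causes were not tested. With library size only, the median over all genes on the log2 scale went from 0.03 to 0.14. The sum over all 90 members hardly differed from that over the 42.

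With the replicate block, 2 members were called (Cyp2c44 and Cyp2d12), with or without the fold limit, 130 of all genes and 2 list genes. Nothing in the labels ties the mice of a number together, so the numbers were not taken to pair the mice. Deviations of same-numbered mice correlated at 0.21, 0.04, 0.20 and -0.03, and mice 1, 2 and 3 but not mouse 4 correlated best with their own number. Whether the numbers mark a shared handling was not tested.

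Counts of scarce members such as Cyp1a1, Cyp3a13 and Cyp4f15, and the mapping of pairs between near-identical copies, limit what can be read from them.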
